A study of Mus musculus with 6 samples.

Results

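Endothelial leukocyte adhesion molecules and the enzymes that make prostaglandins were followed in mouse lung endothelial cells that carried extra L1CAM. The 10 genes were chosen by function, with earlier results of these data known. They were the adhesion molecules Vcam1, Icam1, Icam2, Sele, Selp and Madcam1, and the prostanoid enzymes Ptgs1, Ptgs2, Ptges and Ptgis. A probe set annotated with exactly 1 matching symbol was found for 8 of them among 19938 genes measured, and each of the 8 had a single such probe set. Selp and Ptgs1 had no such probe set and were not analysed here.

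The L1CAM group was lung endothelial cells (lECs) of C57BL/6 background, into which a pcDNA3.1/Hygro(-) plasmid with full-length mouse L1CAM had been stably introduced. L1CAM is a neuronal adhesion molecule of the immunoglobulin superfamily. The control group was the same cells with the empty plasmid. Both groups grew for 4 days to confluence in medium with 20% serum, heparin and endothelial growth supplement, and no cytokine is named in the labels. Each group had 3 biological replicates, 1 Affymetrix array each, described as independent experiments. The sample names point to 1 transfectant per group, and whether these were pools or single clones is not stated, so the p-values measure the spread between cultures of these transfectants.

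Leukocytes leave the blood in steps. Selectins such as E-selectin (Sele) slow the cell on the vessel wall, and members of the immunoglobulin superfamily (VCAM-1, ICAM-1, ICAM-2 and, in gut and lymphoid venules, MAdCAM-1) then hold it by binding leukocyte integrins. Resting endothelium shows much ICAM-2 and little VCAM-1 or E-selectin, and cytokines raise VCAM-1, ICAM-1 and E-selectin through NF-kappaB. Prostaglandins start from arachidonic acid released by phospholipase A2. The cyclooxygenases COX-1 (Ptgs1, constitutive) and COX-2 (Ptgs2, inducible) turn it into prostaglandin H2, from which Ptges makes prostaglandin E2 and Ptgis makes prostacyclin, the main vessel-wall prostanoid.

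Values are log2 expression values made with RMA, a method that removes background, brings arrays to a common distribution and combines probes into 1 value per probe set. Differences are L1CAM minus control on that scale. A gene was called at a limma p below 0.05 after Benjamini-Hochberg adjustment over all genes tested. L1cam itself read 10.49, 10.60 and 10.73 on the L1CAM arrays, against 6.50, 6.77 and 7.31 on the control arrays, so every array lay on the side its label names. L1CAM replicate 1 stood apart: it correlated at 0.9948 and 0.9951 with the other L1CAM arrays, which correlated at 0.9986 with each other (across genes, which are not independent replicates). Its correlations with control replicates 1, 2 and 3 were 0.9952, 0.9935 and 0.9938, so it was as near to control replicate 1 as to its own group. Of all genes 15.0% were called, 6.85% higher and 8.19% lower in L1CAM cells, and 24.8% were called without L1CAM replicate 1. Endothelial markers were present, and all 9 listed markers lay above the array medians (6.55 to 6.58) on every array. Cdh5 (VE-cadherin) read 13.02 to 13.07 in L1CAM cells and 13.10 to 13.13 in control cells. Vwf, the dimmest, lay close to those medians, at 6.82 to 6.87 in L1CAM cells and 6.82 to 6.88 in control cells. The mean of the 9 was 11.12 to 11.16 in L1CAM cells and 11.22 to 11.25 in control cells, and 1 of them, Cldn5, was called lower (-0.22, limma adjusted p = 0.0446). For 7 of the 9 all L1CAM arrays lay below all control arrays, a pattern seen in 16.0% of all genes. Ptprc, the pan-leukocyte marker CD45, read 4.69 to 4.86 in L1CAM cells and 4.56 to 4.73 in control cells. The mean of the 9 leukocyte markers measured was 6.12 to 6.26 in L1CAM cells and 6.27 to 6.37 in control cells. Among them Cd3e, Lyz2 and Cd68 lay above the array medians on every array. Lyz2 read 7.11 to 8.40 in L1CAM cells and 7.62 to 8.56 in control cells. Cd68, a lysosomal protein that is not specific to leukocytes, read 12.00 to 12.21 in L1CAM cells and 12.10 to 12.38 in control cells. The means of the other marker lists were 6.32 to 6.57 in L1CAM cells and 6.71 to 6.76 in control cells for platelet genes, 5.96 to 6.08 in L1CAM cells and 6.03 to 6.05 in control cells for fibroblast and mural genes, and 5.66 to 5.76 in L1CAM cells and 5.62 to 5.71 in control cells for epithelial genes. Of these, Gp9, a platelet glycoprotein, was called lower (-0.98, adjusted p = 0.0433). The calls of Cldn5 and Gp9 were lost when any array but L1CAM replicate 1 was left out, and the part of any marker shift in the results was not tested. Fewer cells of a type and less RNA per cell cannot be told apart in such bulk samples.

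Among the 8 members measured, Vcam1 and Ptgs2 rose in L1CAM cells and none was called lower. So 2 of 8 (25%) were called, against 15.0% of all genes in either direction and 6.85% called higher. Ptgs2, the inducible cyclooxygenase, moved most, at 2.38-fold, and Vcam1 moved by 1.32-fold. Sele, Icam1, Icam2, Madcam1, Ptges and Ptgis did not pass limma's adjusted threshold. Before adjustment, the limma fit across all genes put Sele (higher) and Madcam1 (lower) below 0.05 as well. The median difference of the 8 was 0.10, and the median of all genes was 0.02. The L1CAM arrays all lay above the control arrays for 3 members (Vcam1, Icam1 and Ptgs2), a pattern seen in 18.6% of all genes, and all below for 1 (Madcam1), a pattern seen in 16.0%. In either direction 34.6% of all genes had groups that did not overlap.

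**Figure D1:**
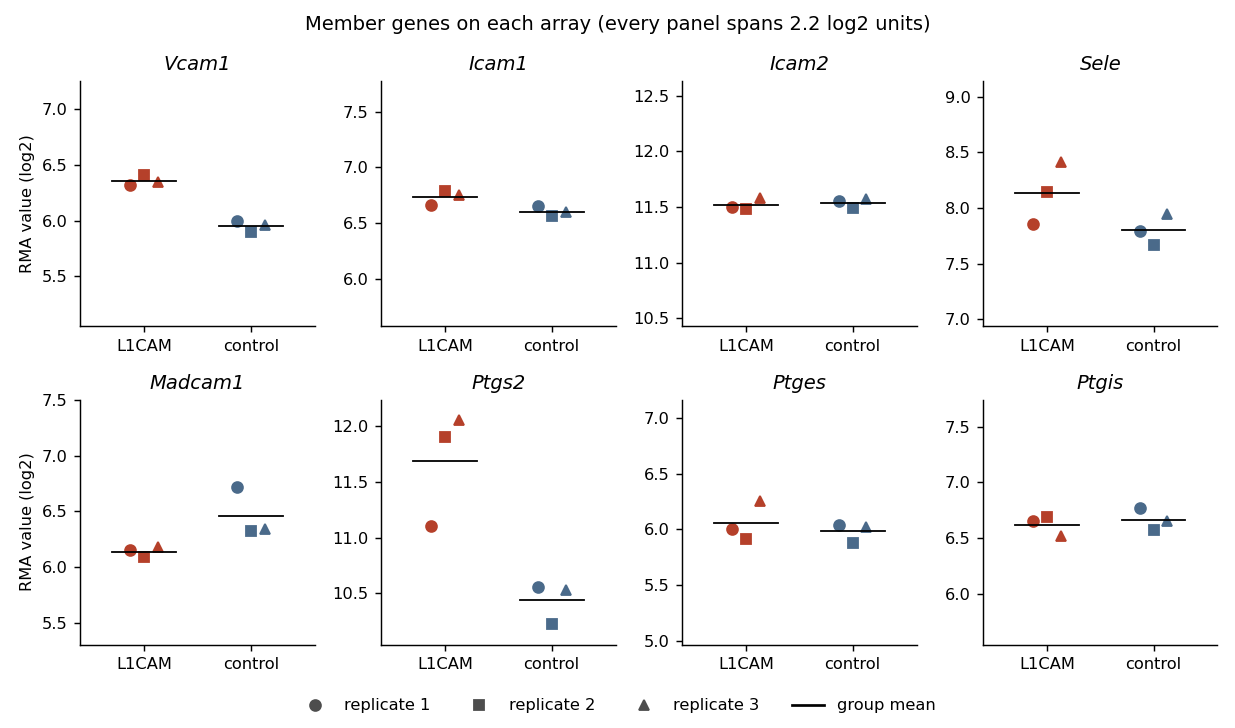
Log2 RMA value of the 8 measured members on each of the 6 arrays, L1CAM at left and control at right in every panel. Symbols mark the replicate number, bars mark group means, and every panel spans the same range of the log2 scale. Ptgs2 shows the widest gap between the groups, with L1CAM replicate 1 at 11.10 and the other L1CAM arrays at 11.90 and 12.06, and Vcam1 shows the tightest separated groups.

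E-selectin, the cytokine-induced selectin of the first capture step, was higher on some L1CAM arrays but did not pass the test. Sele read 7.86, 8.14 and 8.41 in L1CAM replicates 1, 2 and 3, against 7.79, 7.67 and 7.95 in control replicates 1, 2 and 3. The groups overlapped through L1CAM replicate 1, which lay below control replicate 3. The difference was 0.33 (SE 0.14, 95% interval 0.01 to 0.65, limma adjusted p = 0.157). Without L1CAM replicate 1 it was 0.47 with a limma adjusted p of 0.0125, in a fit that called 24.8% of all genes. Without L1CAM replicate 3, the highest array, it was 0.20 (limma adjusted p = 0.378). Sele was not called when any array other than L1CAM replicate 1 was left out.

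VCAM-1, the endothelial ligand of the leukocyte integrin alpha4 beta1, had the steadiest change of the members. Vcam1 read 6.32, 6.41 and 6.35 in L1CAM replicates 1, 2 and 3, against 6.00, 5.90 and 5.96 in control replicates 1, 2 and 3. The groups did not overlap, and the arrays of each group lay close together. Group means were 6.36 ± 0.05 in L1CAM cells and 5.96 ± 0.05 in control cells (SD, n = 3 arrays each), a difference of 0.41 (SE 0.06, 95% interval 0.27 to 0.54), with a limma adjusted p of 0.00449. Vcam1 stayed called whichever array was left out, with an adjusted p of at most 0.0285. All 6 values lay below the array medians (6.55 to 6.58). Such a dim probe set was not shown to be above background.

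The intercellular adhesion molecules, ligands of the beta2 integrins, moved little. Icam1, the inducible one, read 6.66, 6.79 and 6.75 in L1CAM replicates 1, 2 and 3, against 6.65, 6.56 and 6.60 in control replicates 1, 2 and 3. The groups were separated only by the small gap between L1CAM replicate 1 and control replicate 1. The difference was 0.13 (SE 0.06, 95% interval -0.0037 to 0.27) with a limma adjusted p of 0.183, so Icam1 was not called. Its values lay above but close to the array medians (6.55 to 6.58), and it was not shown to be above background. Icam2, which endothelium makes without stimulation, read 11.50, 11.48 and 11.58 in L1CAM cells and 11.55, 11.49 and 11.57 in control cells. These groups overlapped fully, and the interval of the difference, -0.15 to 0.11, holds only small changes in either direction (limma adjusted p = 0.862).

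MAdCAM-1, the ligand of the gut-homing integrin alpha4 beta7, was the member with the lowest difference. Madcam1 read 6.15, 6.09 and 6.18 in L1CAM replicates 1, 2 and 3, against 6.72, 6.32 and 6.34 in control replicates 1, 2 and 3. The L1CAM arrays lay below all control arrays, and control replicate 1 was the high one. The difference was -0.32 (SE 0.11, 95% interval -0.57 to -0.07) with a limma adjusted p of 0.0904, which did not pass the threshold. On 5 of the 6 arrays the probe set lay below the array median.

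COX-2 carried the largest change of all members. Ptgs2 read 11.10, 11.90 and 12.06 in L1CAM replicates 1, 2 and 3, against 10.56, 10.22 and 10.53 in control replicates 1, 2 and 3. The groups did not overlap, and L1CAM replicate 1 lay between the control arrays and the other L1CAM arrays. Group means were 11.69 ± 0.52 in L1CAM cells and 10.44 ± 0.19 in control cells (SD, n = 3 arrays each). The difference was 1.25 (SE 0.23, 95% interval 0.71 to 1.80), which is 2.38-fold (limma adjusted p = 0.0131). Only 74 of the 1366 genes called higher had a larger difference than Ptgs2, while 656 had a larger one than Vcam1.

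The size of the Ptgs2 rise differed between cultures. L1CAM replicate 1 lay 0.66 above the control mean, replicate 2 lay 1.46 above it and replicate 3 lay 1.63 above it. The shift in replicate 1 was 42.8% of the mean shift in replicates 2 and 3, below the lower quartile (52.5%) of the 1366 genes called higher, whose median was 71.5%. For Vcam1 the same share was 86.4%. Without L1CAM replicate 1 the Ptgs2 difference was 1.55 with a limma adjusted p of 4.98e-05. The call was lost when control replicate 2 (1.14, adjusted p = 0.0645), control replicate 3 (1.30, adjusted p = 0.0543) or L1CAM replicate 2 (1.14, adjusted p = 0.0547) was left out, and the direction was kept in all 6 of these fits.

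The terminal synthases among the members, Ptges and Ptgis, did not follow Ptgs2 past the test. Ptges, the inducible microsomal prostaglandin E synthase, read 6.00, 5.91 and 6.25 in L1CAM cells and 6.04, 5.88 and 6.02 in control cells. Its groups overlapped, L1CAM replicate 3 alone was high, and the difference was 0.07 (SE 0.10, 95% interval -0.15 to 0.30, limma adjusted p = 0.68). Ptgis, prostacyclin synthase, read 6.65, 6.69 and 6.52 in L1CAM cells and 6.77, 6.57 and 6.65 in control cells. Its groups overlapped as well, with a difference of -0.05 (SE 0.08, 95% interval -0.22 to 0.13, limma adjusted p = 0.751). Ptges lay below the array median on all 6 arrays and Ptgis on 1, and neither was shown to be above background. The brighter prostaglandin E synthase genes Ptges2 (0.14, limma adjusted p = 0.167) and Ptges3 (0.05, limma adjusted p = 0.649) were not called. For Ptges2 the L1CAM arrays all lay above the control arrays, a pattern seen in 18.6% of all genes.

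**Figure D2:**
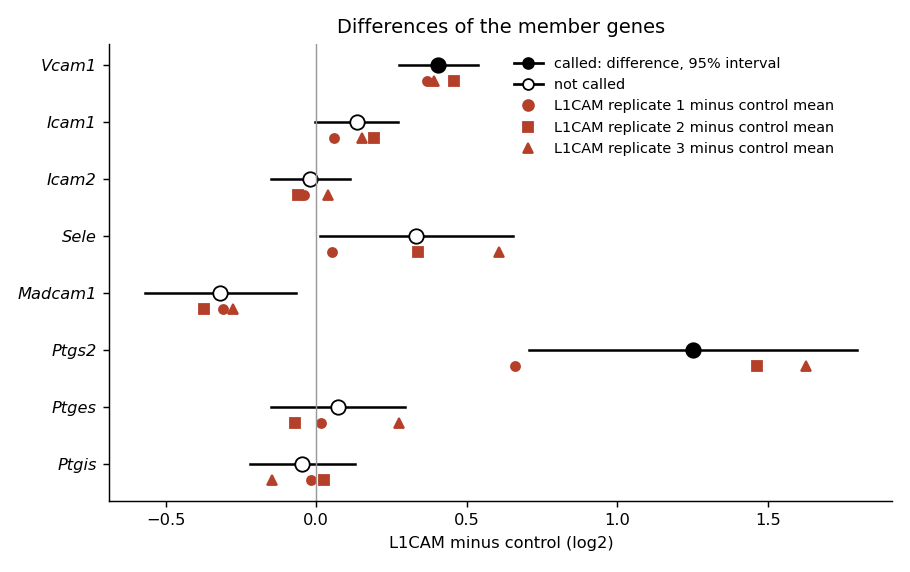
Difference of each measured member, L1CAM minus control on the log2 scale, with its 95% interval from the moderated limma fit. Filled circles passed the test and open circles did not, and the red symbols below each line give the 3 L1CAM arrays against the control mean. The Ptgs2 symbols spread from 0.66 to 1.63, the Vcam1 symbols from 0.37 to 0.46, and the Sele symbols from 0.05 to 0.61.

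Promoter windows show what sequence lies at the start of the member that changed most, Ptgs2, and of 3 members that did not pass the test, Sele, Icam1 and Madcam1. RefSeq windows of GRCm38.p6, 250 bases before to 50 after the annotated start, matched 7 of the 10 members (Ptgs2, Sele, Selp, Ptges, Ptgs1, Icam1 and Madcam1). Those of the 4 genes named first are printed 5′ to 3′, all on the plus strand: Ptgs2 at chr1:150099781-150100080, Sele at chr1:164047984-164048283, Icam1 at chr9:21015690-21015989 and Madcam1 at chr10:79664309-79664608. Capitals mark matches, on either strand, to 7 sets of letters: the usual NF-kappaB consensus, TGACG for the core of the cyclic AMP response element, TTGCNNAA for C/EBP, CACGTG for the E-box, TGANTCA for AP-1, TTCNNNGAA for STAT factors and TATAAA for the TATA box.
Ptgs2: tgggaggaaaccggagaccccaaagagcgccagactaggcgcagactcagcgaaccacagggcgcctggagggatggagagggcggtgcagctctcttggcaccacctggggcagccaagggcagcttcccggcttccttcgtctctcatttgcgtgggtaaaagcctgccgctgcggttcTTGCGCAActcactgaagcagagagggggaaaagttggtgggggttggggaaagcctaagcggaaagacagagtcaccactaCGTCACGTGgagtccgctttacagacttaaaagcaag
Sele: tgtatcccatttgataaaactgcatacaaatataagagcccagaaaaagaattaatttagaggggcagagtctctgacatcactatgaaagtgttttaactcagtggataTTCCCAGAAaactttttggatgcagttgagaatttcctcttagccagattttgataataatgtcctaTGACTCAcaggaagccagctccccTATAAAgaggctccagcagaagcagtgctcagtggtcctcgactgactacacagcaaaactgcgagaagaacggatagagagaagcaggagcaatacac
Icam1: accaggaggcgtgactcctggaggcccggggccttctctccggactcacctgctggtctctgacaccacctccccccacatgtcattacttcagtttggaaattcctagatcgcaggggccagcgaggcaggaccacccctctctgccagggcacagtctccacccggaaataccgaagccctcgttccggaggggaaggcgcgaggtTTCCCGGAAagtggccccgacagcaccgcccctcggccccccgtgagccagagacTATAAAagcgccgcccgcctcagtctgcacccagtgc
Madcam1: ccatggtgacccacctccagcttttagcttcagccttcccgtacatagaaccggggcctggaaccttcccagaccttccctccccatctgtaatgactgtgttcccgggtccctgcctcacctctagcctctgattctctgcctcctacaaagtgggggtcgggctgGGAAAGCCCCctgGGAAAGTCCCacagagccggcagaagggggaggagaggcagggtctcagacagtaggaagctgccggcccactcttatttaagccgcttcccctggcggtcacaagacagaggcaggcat

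In the Ptgs2 window the C/EBP letters (TTGCGCAA) lay 69 to 62 bases before the annotated start. The cyclic AMP response core (CGTCA) and the E-box (CACGTG) lay 14 to 18 and 17 to 22 bases after it and overlap. Of all 32851 RefSeq windows, 10.8% held the C/EBP letters, 20.8% that core and 7.15% the E-box. The Sele window held an AP-1 match (7.81% of windows), a STAT match (8.3%) and the TATA box letters (13.6%). Those TATA letters lay 49 to 44 bases before the annotated start. The Icam1 window held a STAT match 42 to 34 bases before its annotated start and the TATA box letters 14 to 19 bases after it. Whether either set of TATA letters acts as a TATA box was not tested. The NF-kappaB consensus, found in 8.46% of windows, matched at 2 places in the Madcam1 window and in no other of the 7 member windows. A match is a stretch of letters and not a shown binding site. Only these sets of letters were searched, so a window without a match may still hold NF-kappaB or other sites spelled otherwise. The windows also do not reach enhancers further away.

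The rest of the prostanoid pathway was read from a list of 44 other genes, of which 41 were measured. Of these 2 rose and 4 fell, 14.6% in all against 15.0% of all genes, and their median difference was 0.03. Of the 41 genes 24 lay below the array medians on every array. With genes under the median on 4 or more arrays removed, 7 of the remaining 16 (43.8%) were called, 2 higher and 5 lower, against 30.0% of all 11409 remaining genes. Pla2g4a, the cytosolic phospholipase A2 that releases arachidonic acid for the cyclooxygenases, rose. It read 10.41, 11.18 and 11.20 in L1CAM replicates 1, 2 and 3, against 9.82, 9.65 and 9.74 in control replicates 1, 2 and 3, a difference of 1.20 (SE 0.20, limma adjusted p = 0.00822). Pla2g5, a secreted phospholipase A2, fell: it read 7.80, 7.93 and 7.83 in L1CAM cells, against 8.63, 8.91 and 8.83 in control cells, a difference of -0.93 (SE 0.08, limma adjusted p = 0.000773). These phospholipases moved in opposite directions, each with groups that did not overlap.

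Downstream of the cyclooxygenases, 1 receptor and 2 enzymes that handle prostaglandins changed. Ptger4, the prostaglandin E2 receptor EP4, read 6.96, 6.90 and 7.04 in L1CAM cells, against 6.47, 6.29 and 6.53 in control cells, and rose by 0.54 (SE 0.08, limma adjusted p = 0.00492). Its control values lay below the array medians. Cbr1, a carbonyl reductase that can convert prostaglandin E2 to F2 alpha, read 6.51, 6.74 and 6.64 in L1CAM cells, against 8.23, 8.37 and 8.35 in control cells. It was 3.22-fold lower in L1CAM cells (difference -1.69, SE 0.08, limma adjusted p = 6.88e-05), a larger change than that of any member, and the L1CAM values lay close to the array medians. Ptgr2, a reductase of 15-keto prostaglandins, fell by 0.34 (adjusted p = 0.0129), and Ltc4s, leukotriene C4 synthase of the neighbouring leukotriene arm, fell by 1.23 (adjusted p = 0.0174). Ltc4s read 10.77, 9.70 and 9.91 in L1CAM cells, against 11.48, 11.23 and 11.34 in control cells, with L1CAM replicate 1 again nearest to the control arrays. Pla2g4a, Pla2g5, Cbr1 and Ptger4 stayed called whichever array was left out. Ptgr2 lost its call without control replicate 2 or 3 or L1CAM replicate 2 or 3, and Ltc4s lost its call when any array but L1CAM replicate 1 was left out. The prostacyclin receptor Ptgir (0.04, adjusted p = 0.77) and the prostaglandin-degrading dehydrogenase Hpgd (0.03, adjusted p = 0.772) did not pass the test and lay below the array medians throughout.

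**Figure D3:**
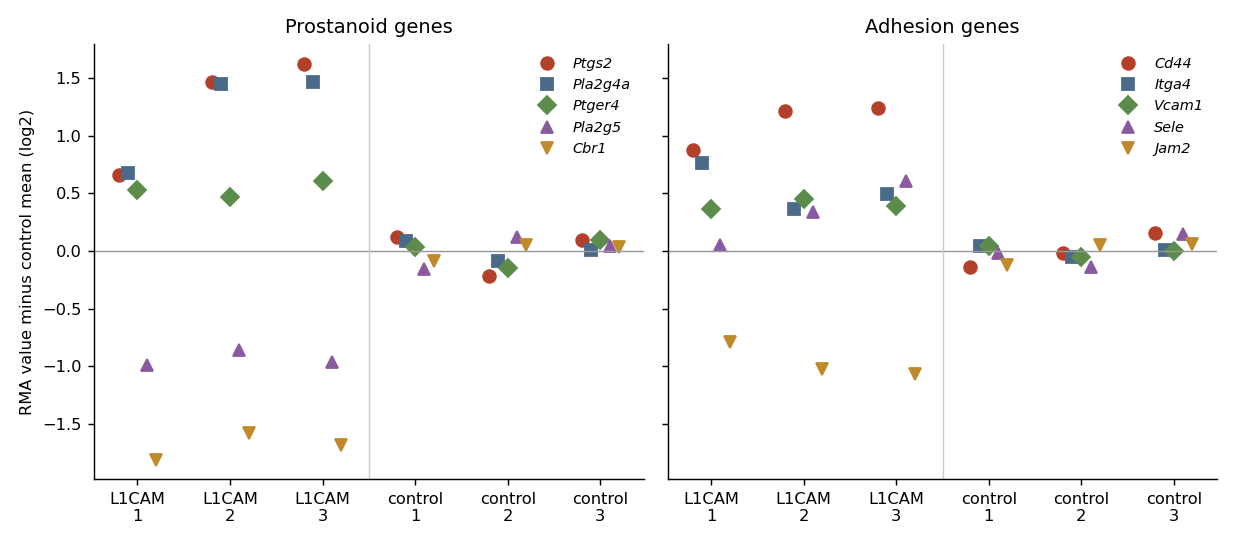
Log2 RMA value minus the control mean on each array, for 5 prostanoid genes at left and 5 adhesion genes at right, with L1CAM arrays before control arrays. Ptgs2 and Pla2g4a lie close together on every array, and for both L1CAM replicate 1 sits well below replicates 2 and 3. Ptger4, Pla2g5 and Vcam1 show L1CAM replicate 1 level with the other L1CAM arrays.

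Pla2g4a was also the gene whose pattern lay nearest to that of Ptgs2. Over the 6 arrays, after subtraction of each gene's mean, the distance between Ptgs2 and Pla2g4a was 0.22 log2 units, the smallest among all genes tested, followed by Gja1 (connexin-43) at 0.26 and Cox6a2 (a subunit of cytochrome c oxidase) at 0.28. This is a description over 6 arrays in 2 groups, and no test was made of it. In the GRCm38.p6 gene table Pla2g4a and Ptgs2 are neighbours on chromosome 1, with 0 protein-coding genes between them. The 3 nearest measured protein-coding genes on each side, looked up after this was seen, were not called: the differences were -0.09 for Rgs21, 0.02 for Rgs18 and 0.08 for Brinp3 on one side, and 0.01 for Pdc, 0.21 for Odr4 and 0.12 for Prg4 on the other. Odr4 read 9.76 to 9.88 in L1CAM cells and 9.55 to 9.65 in control cells, and the others lay below the array medians. The genes nearest to Vcam1 by the same measure were Celf2 at 0.04, Mrpl54 at 0.06 and Ext1 at 0.07.

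Other genes of leukocyte capture, adhesion and passage were read from a list of 45, of which 43 were measured. Of these 4 rose and 3 fell, 16.3% against 15.0% of all genes, with a median difference of -0.01. With dim genes removed as before, 7 of the remaining 29 (24.1%) were called, 3 higher and 4 lower, against 30.0% of all remaining genes. The largest rise was that of Cd44, a hyaluronan receptor that can also bind selectins, which read 8.33, 8.67 and 8.70 in L1CAM cells, against 7.32, 7.44 and 7.61 in control cells (difference 1.11, SE 0.12, limma adjusted p = 0.00141). Pvr, a nectin-like molecule at endothelial junctions (CD155), rose by 0.87 (adjusted p = 0.00996). Itga4, the alpha4 chain of the integrin that binds VCAM-1, also rose: it read 6.30, 5.90 and 6.03 in L1CAM cells, against 5.58, 5.48 and 5.54 in control cells (difference 0.55, SE 0.10, limma adjusted p = 0.0117). All 6 Itga4 values lay below the array medians, and the call was lost without control replicate 2 or 3. Itgb1, its beta1 partner, read 11.98 to 12.08 in L1CAM cells and 12.19 to 12.27 in control cells and was not called (-0.20, adjusted p = 0.0515).

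Junctional and glycan genes of the same list moved in both directions. Jam2, a junctional adhesion molecule that binds alpha4 beta1 integrin and JAM-C, read 11.65, 11.41 and 11.37 in L1CAM cells, against 12.32, 12.49 and 12.50 in control cells, and fell by 0.96 (SE 0.09, limma adjusted p = 0.000934). The sialyltransferases that help build selectin ligands split: St3gal4 fell by 1.01 (SE 0.08, adjusted p = 0.00047) and St3gal6 rose by 0.85 (SE 0.14, adjusted p = 0.00896). Ezr, ezrin, which links ICAM-1 and VCAM-1 to the actin cortex, fell by 0.44 (adjusted p = 0.0155) but lost its call without control replicate 2 or 3 or L1CAM replicate 2 or 3. Pvr lost its call without control replicate 2, and Jam2, Cd44, St3gal4 and St3gal6 kept theirs whichever array was left out. The passage molecules Pecam1 (-0.07, adjusted p = 0.411), F11r (-0.14, adjusted p = 0.199) and Esam (-0.07, adjusted p = 0.463) did not pass the test. Groups did not overlap for 8 of the 43 genes with L1CAM above control, a pattern seen in 18.6% of all genes. For 16 of the 43 L1CAM lay below, a pattern seen in 16.0% of all genes. Without L1CAM replicate 1, 13 genes of the list were called (30.2%, against 24.8% of all genes), 5 higher and 8 lower, among them Itgb2, the beta2 chain of the ICAM-binding integrins, which read 6.70 in that replicate, 8.02 and 8.06 in the other L1CAM cultures and 7.21 to 7.36 in control cells.

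**Figure D4:**
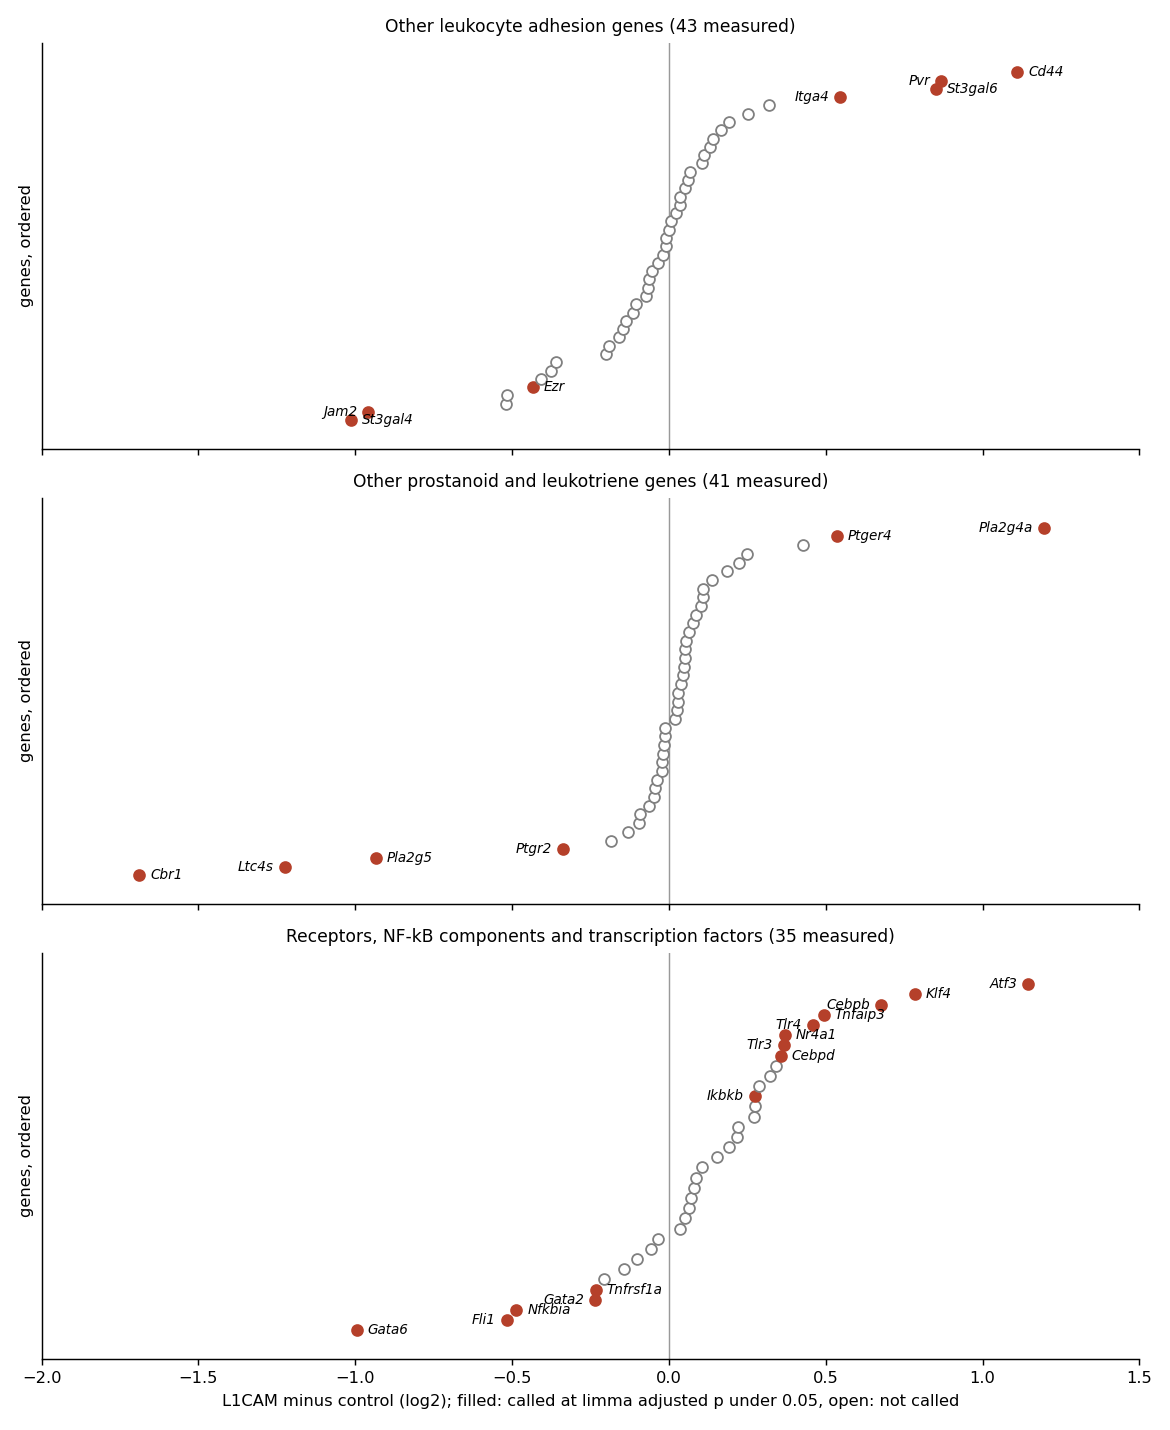
Differences, L1CAM minus control on the log2 scale, of all measured genes in 3 lists, ordered within each panel, with called genes filled and named. The top panel holds adhesion genes, the middle panel prostanoid and leukotriene genes and the bottom panel known regulators. Most genes of the upper panels lie near 0, with Cbr1 at -1.69 and Pla2g4a at 1.20 farthest out in the prostanoid panel.

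Known controllers of the adhesion and COX-2 genes moved in both directions. Of 39 cytokine and Toll-like receptors, NF-kappaB components and transcription factors listed, 35 were measured, 9 rose and 5 fell, so 40% were called against 15.0% of all genes. The list was drawn up with earlier results of these data known. Most of its measured genes were bright, 30 of the 35 above the array medians on every array. With dim genes removed as before, 16 of 31 (51.6%) were called against 30.0% of all remaining genes, and with an ordinary linear model 1 of 35 (2.86%) against 2.91% of all genes. Inhibitors of NF-kappaB moved apart: Nfkbia, which holds NF-kappaB in the cytoplasm, fell by 0.49 (limma adjusted p = 0.00366), and Tnfaip3, the feedback enzyme A20, rose by 0.49 (adjusted p = 0.0135). The subunit gene Rela measured 0.07 (adjusted p = 0.558) and Nfkb2 measured 0.03 (adjusted p = 0.753). Another NF-kappaB component, Ikbkb, rose by 0.27 (adjusted p = 0.0312). The C/EBP genes Cebpb (0.675, adjusted p = 0.0241) and Cebpd (0.36, adjusted p = 0.0223) were also called higher. Atf3, a stress-induced transcription factor, rose by 1.15 (adjusted p = 0.00514), Klf4, which restrains endothelial VCAM-1, by 0.78 (adjusted p = 0.0027), Tlr4 by 0.46 (adjusted p = 0.00764), Tlr3 by 0.37 (adjusted p = 0.0101) and Nr4a1 by 0.37 (adjusted p = 0.0172). Gata6, a known activator of Vcam1, fell by 1.00 (adjusted p = 0.00327), Fli1 by 0.52 (adjusted p = 0.0132), Tnfrsf1a, a TNF receptor, by 0.23 (adjusted p = 0.0346) and Gata2 by 0.24 (adjusted p = 0.0471). The cytokines Tnf (0.08, adjusted p = 0.6), Il1a (0.19, adjusted p = 0.43) and Il1b (-0.06, adjusted p = 0.816) were dim and not called. Atf3, Klf4, Tlr4, Nfkbia and Gata6 stayed called whichever array was left out. Tnfaip3, Nr4a1, Ikbkb, Cebpb, Cebpd, Fli1, Tnfrsf1a and Gata2 lost their calls without control replicate 2 and without L1CAM replicate 3, among other arrays. Tlr3 lost its call without control replicate 3. The list had 6 calls (17.1%) when control replicate 2, control replicate 3 or L1CAM replicate 3 was dropped, against 5.18%, 5.34% and 6.21% of all genes. It had 21 (60.0%) when L1CAM replicate 1 was dropped, against 24.8% of all genes.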

How the data were processed

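The deposited values were log2 expression values per probe set, made by the authors by RMA (Affymetrix Expression Console 1.1), as the submitters' processing notes record. Its further settings and the array's genome build: not given in the sources used here. No detection calls or scanner files were used here, and 3 arrays per group limit the precision. Of 35512 probe sets, 21789 carried 1 gene symbol in GEO's platform annotation, and matching Entrez identifiers to the GRCm38.p6 RefSeq table changed 0 symbols. Where a gene had several, the brightest by its 6-array mean was kept, which gave 19938 genes.

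Group differences were fitted in limma 3.58.1 (R 4.3.3; lmFit, eBayes), two-sided, with group as the only term. SE and intervals are moderated. On simulated data for L1CAM minus control over 19938 genes, 72% of genes changed by 0.5 (log2), 84% changed by 1 and 100% changed by 2 or 4 were recovered, with 3 false calls. The simulation changed only a small part of the genes and drew independent noise with the same spread in both groups. No simulated array departed from its group across many genes, as L1CAM replicate 1 did, so these rates need not hold for the data. Python 3.11.15, pandas 2.3.3 and matplotlib 3.10.9 made the tables and figures.

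The members, lists and tests were chosen with earlier results of these data known. The named genes are every member, up to 6 called genes per direction with the smallest adjusted p from each of 3 pathway lists, L1cam, listed markers, counter-receptors of members and the 3 genes nearest to each called member. Other genes of those lists are given as values and were chosen after their values were seen. Alternatives tried were a second quantile normalization, centring of arrays on their medians, removal of dim probe sets (those under their array's median on 4 or more of the arrays), averaging of probe sets, a trended or robust variance prior, array weights, an unmoderated linear model, the replicate number as a block, and leaving out each array.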

Additional observations from a re-analysis of the deposited data

How the results depend on the processing

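The 2 called members stayed 2 in number after quantile normalization again, with array medians set to 0, with the mean of probe sets, an intensity trend or a robust prior. They became 1 with the filter on dim probe sets, which removes Vcam1, Madcam1 and Ptges and leaves 5 members. That is 20%, against 30.0% of the 11409 remaining genes called in either direction and 13.7% called higher. They also became 1 (12.5%, against 2.91% of all genes) with an ordinary linear model, where Ptgs2 had an adjusted p of 0.12. With each array left out, 1 to 3 members were called (12.5% to 37.5%), against 5.18% to 24.8% of all genes. Array weights called 3 members (37.5%, against 26.0% of all genes), with Sele added (0.46, adjusted p = 0.0184). Vcam1 was called in all 14 alternatives that test it. Ptgs2 kept its direction in all 15 and its call in 11. Members that were not called changed sign by small amounts: Icam2 to 0.0015 with array weights, while with each array left out Ptges ranged from -0.0275 to 0.145 and Ptgis from -0.0942 to 0.0105. Over all genes 2999 were called, 3421 with the filter on dim probe sets, 5191 with array weights, 581 with an ordinary linear model and 1033 to 4952 with each array left out. Adhesion list calls were 7 (16.3%), and 13 with array weights (30.2%). They were 2 with an ordinary linear model (4.65%) and 4 to 13 with each array left out (9.3% to 30.2%). Prostanoid list calls were 6 (14.6%), 2 with an ordinary linear model (4.88%) and 4 to 7 with each array left out (9.76% to 17.1%). Regulator list calls were 14 (40.0%), 1 with an ordinary linear model (2.86%) and 6 to 21 with each array left out (17.1% to 60.0%). The causes of these shifts were not tested. Same-numbered arrays share a number, and those numbered 2 and 3 also share a letter in their sample descriptions, whose meaning is not stated. They were not treated as pairs: their deviations from the group means correlated at -0.10, -0.10 and -0.03. With the replicate number as a block 2 members and 2067 genes were called. Signal over background is unknown for these values.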
